A study of Mus musculus with 3 samples.

Results

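Macrophages and conventional dendritic cells were looked for among thymic cells sorted for TCRβ and CD1d tetramer binding and against CD24 and NK1.1, the phenotype of early iNKT cells, in mice after haploidentical bone marrow transplantation (haplo-BMT). A cell was a member when at least 4 of the 7 myeloid genes Lyz2, Cst3, Fcer1g, Csf1r, Itgax, Cd68 and Ifi30 had a unique molecular identifier (UMI, 1 captured transcript) and when Siglech, a gene of plasmacytoid dendritic cells, and Cd79a, a gene of B cells, had none. Of 11527 filtered cells in both BMT libraries 85 were members, and the series as a whole held 15961 filtered cells. The label fitted these cells only in part. Cd209a, a gene of type 2 conventional dendritic cells (cDC2), was found in 50 of 85. The complement genes C1qa, C1qb and C1qc, which mark tissue macrophages, were found in 4 of 85. They are called myeloid-marker cells here.

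Recipients were C57BL/6 x BALB/c F1 mice that had been lethally irradiated and given T cell-depleted bone marrow of C57BL/6 mice. Those of the BM only group received nothing else, and those of the BM + Spl group also received C57BL/6 splenic cells, which cause graft-versus-host disease (GvHD). Thymi were taken 9 weeks after BMT from mice labelled 16 weeks old, several mice were pooled, CD8+ cells were depleted with beads and each group was run as 1 droplet library, so no value has a replicate check and no test was made. A library from C57BL/6 mice that had no BMT and are labelled as 7 weeks old, sorted alike, served as background. The bead step would also bind dendritic cells that carry CD8α on their surface, and its part in the makeup of these cells was not tested.

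Macrophages of the thymus take up dying thymocytes, digest them in lysosomes and make the C1q complement protein. Conventional dendritic cells take up antigen and show its peptides on MHC class II molecules to CD4+ T cells, and in the thymus they take part in negative selection and in the making of regulatory T cells. They are divided into cDC1, which need Batf3 and Irf8 and carry Xcr1 and Clec9a, and cDC2, which carry Sirpa and, in part, the lectins Cd209a, Clec10a and Mgl2. Monocytes, which carry Ly6c2, Ccr2 and F13a1, can give rise to cells of both kinds. The class II genes share a promoter with short X and Y elements and depend on the coactivator Ciita.

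Because class II UMIs were near 0 in a part of the dendritic-like cells described below, the 250 bases before the start sites of 3 class II genes are shown (RefSeq, GRCm38.p6, 5′ to 3′ on the strand of the gene). Capitals mark GATTGG, the core of the Y element, and GATGATGC, the core of the X2 element, each searched on both strands so that GATTGG may read CCAATC. H2-Aa (chr17:34287824-34288073, minus strand) encodes the I-A alpha chain, H2-Eb1 (chr17:34305617-34305866, plus strand) the I-E beta chain and H2-DMb1 (chr17:34152941-34153190, plus strand) a subunit of the H2-M peptide exchanger.
H2-Aa: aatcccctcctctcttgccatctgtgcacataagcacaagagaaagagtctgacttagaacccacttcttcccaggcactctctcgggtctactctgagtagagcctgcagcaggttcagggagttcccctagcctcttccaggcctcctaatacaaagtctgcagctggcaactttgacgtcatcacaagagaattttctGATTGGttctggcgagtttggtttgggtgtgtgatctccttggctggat
H2-Eb1: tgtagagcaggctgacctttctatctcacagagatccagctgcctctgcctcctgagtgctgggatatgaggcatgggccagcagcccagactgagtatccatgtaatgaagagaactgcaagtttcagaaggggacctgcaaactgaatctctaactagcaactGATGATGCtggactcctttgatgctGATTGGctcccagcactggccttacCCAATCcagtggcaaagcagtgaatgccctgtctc
H2-DMb1: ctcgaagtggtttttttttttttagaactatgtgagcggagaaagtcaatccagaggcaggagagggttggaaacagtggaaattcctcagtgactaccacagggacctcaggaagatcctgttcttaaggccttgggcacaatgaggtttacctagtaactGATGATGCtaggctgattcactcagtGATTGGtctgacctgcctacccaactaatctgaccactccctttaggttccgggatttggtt
In the full windows, which run from 250 bases before to 50 after the start, the Y core was in 7 of the 10 promoters found for 9 of the 12 listed class II pathway genes and the X2 core in 3, against 16.1% and 0.703% of all 32851 promoters. H2-Ab1, Cd74 and Ciita were without an entry in the table used. A match describes the letters and is not a binding site.

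The BM only library held 35041153 UMIs, 5970 filtered cells and 48 myeloid-marker cells, or 0.804% (0.593 to 1.06). The BM + Spl library held 43383960 UMIs, 5557 filtered cells and 37 such cells, or 0.666% (0.469 to 0.917). The log2 ratio of the shares, BM + Spl over BM only, was -0.27 (-0.89 to 0.34), so a difference was not detectable at this depth. Ranges in parentheses after a share, level or ratio are 95% intervals and cover counting error only. In the C57BL/6 library, with 60600408 UMIs, 1 of 4434 filtered cells met the rule (0.0226%). That cell had 20308 UMIs, among them 160 of Cst3, 31 of Irf8, 5 of Batf3 and 4 of Clec9a, none of Cd209a, and 94 of the 12 T cell genes.

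The myeloid-marker cells had a median of 9386 UMIs in BM only (lowest 999, highest 22811) and 10818 in BM + Spl (lowest 1091, highest 30850). These medians were above those of 4740 and 6495 over all filtered cells. Of the 7 rule genes, 4 were detected in 12 cells, 5 in 25, 6 in 32 and all 7 in 16. Just outside the rule, 135 BM only cells and 80 BM + Spl cells showed 3 of the genes, and their median UMIs of 12 T cell genes, 41 and 64.5, were like those of the sorted T cells. Just inside it, the 8 and 4 cells with 4 rule genes had medians of 4 and 12. Siglech took away most cells with at least 4 rule genes, 166 of 221 in BM only and 388 of 430 in BM + Spl. The transplant libraries shared 43 cell barcodes, among them that of 1 myeloid-marker cell.

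T cell transcripts were rare in these cells although the sort was for TCRβ. No UMI of the 12 T cell genes was found in 33 of 48 myeloid-marker cells of BM only (68.8%) and 26 of 37 of BM + Spl (70.3%), against 2.75% and 4.38% of the other cells. Their median was 0 in both libraries, while the other cells had medians of 34 and 46. At least 20 T cell UMIs were seen in 7 and 6 of the cells. Free RNA, which was not told apart from a cell's own transcripts, was looked for in T cells. There were 5436 of these in BM only and 4907 in BM + Spl, with median depths of 4658.5 and 6261 UMIs. They had at least 3 T cell UMIs, fewer than 3 rule genes and no UMI of Siglech or Cd79a. Lyz2 was found in 0.202% and 0.0815% of them, Cd209a in 0.0736% and 0.0611% and Csf1r in 0.0552% and 0, against 58.3% and 62.2%, 56.2% and 62.2%, and 56.2% and 73.0% of myeloid-marker cells. Lyz2 and Csf1r are rule genes, so their shares in the myeloid-marker cells follow from the rule. Their low shares in the T cells follow in part from the limit on rule genes there. Other rule genes were common in T cells, with Cst3 in 52.2% and 61.4%, Ifi30 in 14.7% and 24.7% and Fcer1g in 16.3% and 2.63%. Cd74 was found in 19.2% and 39.9% of them, so a UMI of these says little about a cell, whereas H2-Aa was found in 1.2% and 4.46%.

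Dendritic identity prevailed over macrophage identity. Each cell was scored on 8 macrophage genes (among them C1qa, C1qb, C1qc, Adgre1, Mertk, Fcgr1 and Vcam1) and 8 dendritic genes (Flt3, Zbtb46, Xcr1, Clec9a, Batf3, Cd209a, Fscn1, Ccl22), none of them in the rule, and was called for the list with more detected genes if these were at least 2. Dendritic-like were 28 of 48 cells in BM only, 58.3% (43.2 to 72.4), and 22 of 37 in BM + Spl, 59.5% (42.1 to 75.2). The share over both libraries was 58.8%, and it was 31.8% with cells thinned to 2000 UMIs and 17.7% when 3 rule genes were enough. Macrophage-like were 2 cells in each, together 4.71% (1.30 to 11.6) of 85. The other 18 and 13 cells were uncalled, and these 31 are also the cells in which the lists differed by 1 gene or less. Both lists were rarely found together, as 2 of the 50 dendritic-like cells, both of BM + Spl, had a macrophage gene, Fcgr1 (a receptor for IgG).

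**Figure D1:**
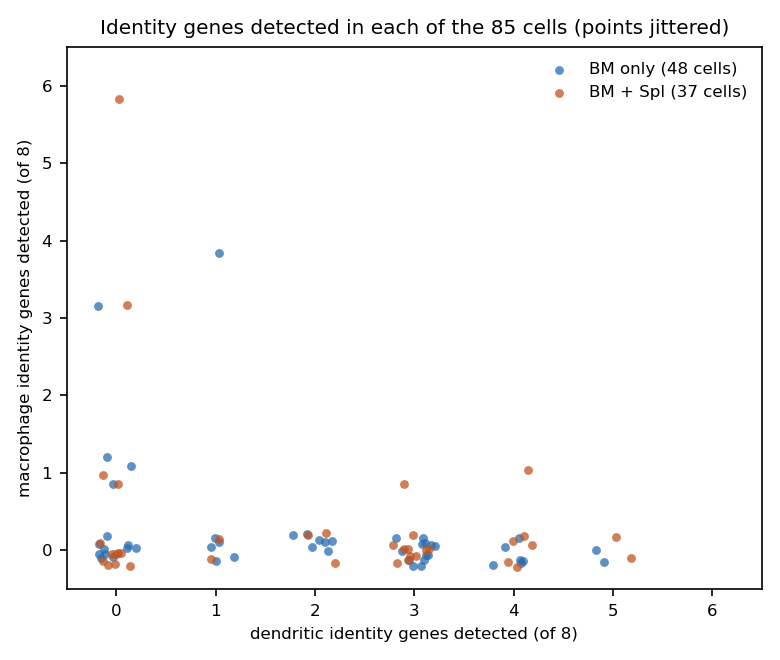
Number of the 8 dendritic identity genes (horizontal axis) and of the 8 macrophage identity genes (vertical axis) with at least 1 UMI in each of the 85 cells, jittered, in blue for BM only (48 cells) and orange for BM + Spl (37 cells). Most cells lie along the horizontal axis, and 4 cells, 2 of each library, reach 3 or more macrophage genes.

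The 50 dendritic-like cells carried lectins of cDC2. Cd209a (ENSMUSG00000031494, chromosome 8 from 3743397 to 3748984), a C-type lectin and one of the genes that made the call, was detected in 46 of 50, with 0 to 73 UMIs per cell and a median of 18 in BM only and 2 to 88 and a median of 24.5 in BM + Spl. Clec10a, a galactose-binding lectin that was not used for the call, was detected in 45 of 50, with medians of 8 and 8.5 UMIs in the libraries. At least 3 of 8 cDC2 genes were found in 23 of 28 and 20 of 22 cells. The other genes of this list varied, with Mgl2 in 32 of the 50, Sirpa and Irf4 in 30 each and Clec12a in 17. Plet1 had 1 UMI and Clec4a4 had 0. Against the 12 monocyte-gene cells described below, Sirpa (log2 ratio -1.15, -1.78 to -0.50) and Clec12a (-1.83, -2.66 to -0.99) were lower. Cd209a, Clec10a, Mgl2 and Irf4 were higher. Flt3, the receptor of the cytokine that sustains dendritic cells, was in 39 cells, Zbtb46, a transcription factor of conventional dendritic cells, in 29, and Spi1, the factor of all myeloid cells, in all 50. Cd209d and Cd209e, close relatives of Cd209a whose reads the counting may divide, had 458 and 256 UMIs.

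Of the 8 listed cDC1 genes, 3 were at 0 in the dendritic-like cells of each library, and the list had 139 and 125 UMIs. Wdfy4, which cDC1 need for cross-presentation, led the list with 67 and 63 UMIs in 24 of 28 and 18 of 22 cells (0.15, -0.37 to 0.66). Clec9a, a receptor for dead cells, had 1 or 2 UMIs in each of 12 dendritic-like cells, 16 UMIs in all, and all 50 were without a UMI of Xcr1, the chemokine receptor of cDC1. Batf3 was found in 26 of the 50 cells with up to 10 UMIs. Genes of mature dendritic cells (Ccr7, Fscn1, Ccl22, Apol7c and others) reached at least 3 of 8 in 2 cells, both of BM only. In 1 of these 122 UMIs of Apol7c, 29 of Fscn1 and 17 of Ccr7 were counted, and no other myeloid-marker cell had Apol7c.

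The 4 macrophage-like cells were small libraries but for 1. In BM only they had 999 and 3394 UMIs, with 5 and 25 of C1qb and 30 and 145 of Lyz2, the lysozyme gene. In BM + Spl they had 1091 and 13231 UMIs, with 12 and 5 of C1qb and 39 and 34 of Lyz2, and the larger also held 57 T cell UMIs and none of C1qa or C1qc. Class II was present in 3 of the 4, with 15 and 63 UMIs of H2-Aa in the BM only cells and 0 and 30 in the BM + Spl cells.

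The macrophage-like and dendritic-like cells differed in the following named genes, taken from both ends of the ratios. Apoe, a lipid carrier, had 138 UMIs in all 4 cells and 0 in the 50 dendritic-like cells. Ctsb, a lysosomal protease, was higher by 3.04 on the log2 scale of CPM (UMIs per 1000000 UMIs of the summed cells) (2.57 to 3.49), Laptm4a, a lysosomal membrane gene, by 2.02 (1.06 to 2.86) and Lamp1, another, by 1.95 (0.996 to 2.79). The lysosomal reductase gene Ifi30, a rule gene that was not taken from these ends, was lower (-1.66, -2.42 to -1.0). It was at 2959 CPM in macrophage-like and 3192 in dendritic-like cells of BM only and at 349 and 2863 in BM + Spl. Clec10a, Cd209d, Ier3, Il4i1 and Mgl2 had 511, 458, 355, 245 and 238 UMIs in the dendritic-like cells and 0 in the macrophage-like cells. Those 4 cells hold 18715 UMIs in all, and their numbers allow no comparison of libraries.

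The 31 uncalled cells were of several kinds, divided here by a description made after their values were seen. Monocyte genes, at least 4 of 8, were found in 12 of them, 10 of BM only (20.8% of its myeloid-marker cells, 10.5 to 35.0) and 2 of BM + Spl (5.41%, 0.661 to 18.2). At least 3 T cell UMIs were found in 8 others, 4 of each library. Cd209a as the only dendritic gene was found in 4, 3 of BM only and 1 of BM + Spl. The last 7 had no such feature, 1 of BM only and 6 of BM + Spl.

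**Figure D2:**
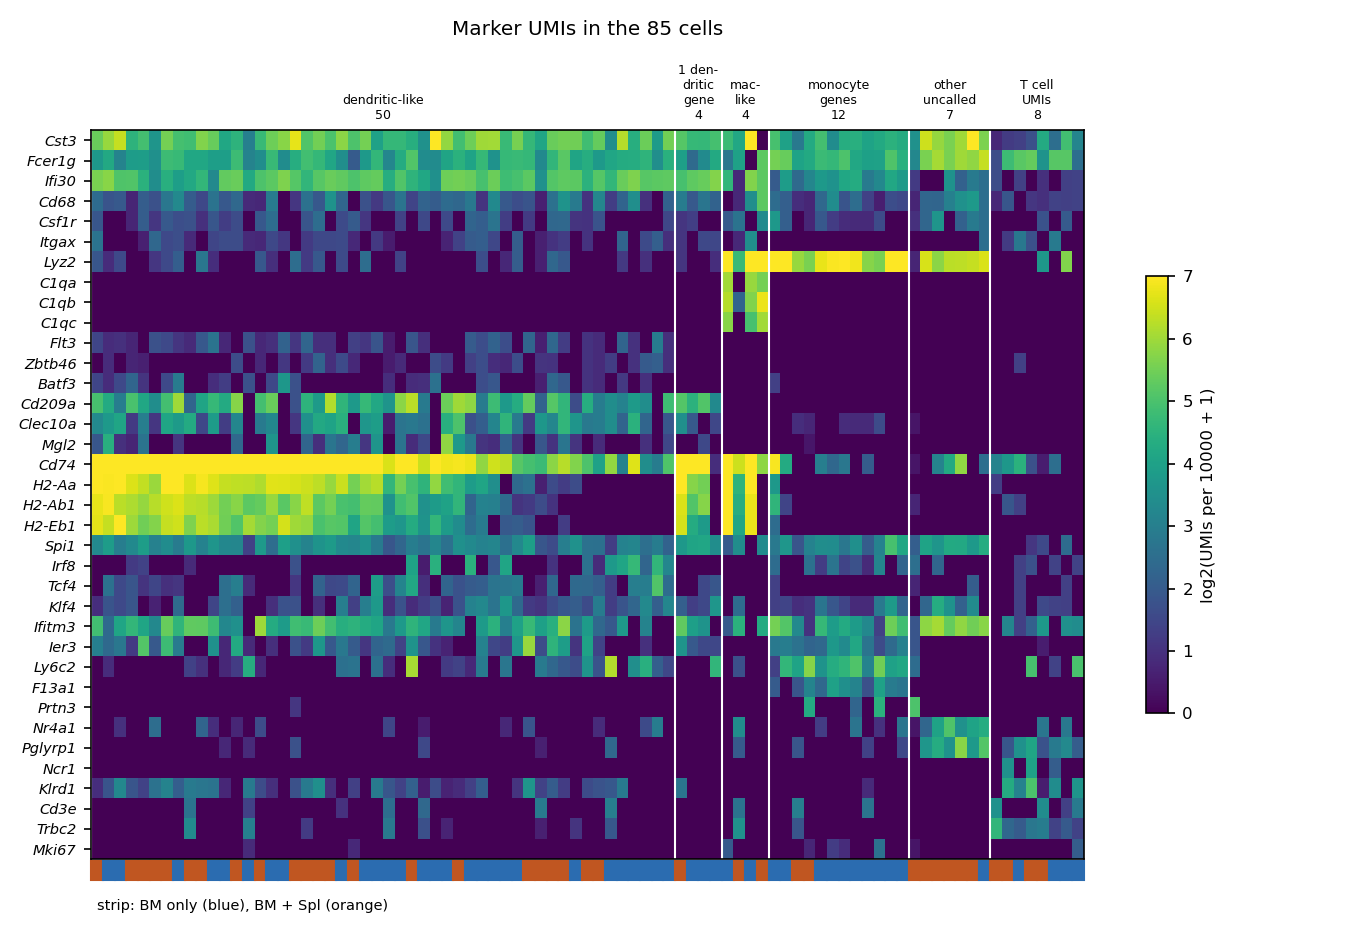
UMIs of marker genes (rows) in the 85 cells (columns), as log2 of UMIs per 10000 plus 1, with the cells grouped by call and, for uncalled cells, by their leading genes, with the number of cells above each group and the library in the strip below. Within the dendritic-like cells, ordered by class II, Cd209a and Clec10a run across the group while H2-Aa, H2-Ab1 and H2-Eb1 fade to 0, and C1q genes are confined to the 4 macrophage-like cells.

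The 12 monocyte-gene cells were set apart by Lyz2, a rule gene, with 1576 UMIs in 12 cells against 56 in the 50 dendritic-like cells. The CPM of Ly6c2, the gene of the Ly6C antigen, was lower in dendritic-like cells by 2.64 on the log2 scale (log2 ratio -2.64, -2.87 to -2.42), although this gene helped to define the 12 cells. Cebpb, a factor of monocytes and granulocytes (-3.99, -4.52 to -3.48), and Cxcl2, a neutrophil chemokine (-3.42, -4.01 to -2.85), stood likewise, but the 37 Cxcl2 UMIs of dendritic-like cells lay in 2 cells. Hp, the haptoglobin gene and also one that defined them, had 78 UMIs against 0. The genes H2-Aa (6.49, 5.51 to 7.70), H2-Eb1 (7.16, 5.61 to 9.44) and Cd74 (4.54, 4.27 to 4.83) were higher in dendritic-like cells. All 8 H2-Aa, all 3 H2-Eb1 and 80 of the 110 Cd74 UMIs of the monocyte-gene cells were from 1 cell each, and the other 11 cells had no H2-Aa. Cd7, Itgax and Zbtb46 had 569, 68 and 43 UMIs there and 0 in the monocyte-gene cells. Itgax is a rule gene and Zbtb46 a gene of the dendritic call, which these cells lacked, so their contrast follows in part from the selection. Over both libraries, Spi1 (-0.11, -0.41 to 0.21), Irf8 (-0.21, -0.68 to 0.29) and Klf4 (0.10, -0.43 to 0.66), all transcription factors of the myeloid lineage, differed by less than their counting intervals. For Irf8 and Spi1 the libraries ran in opposite directions. Irf8 was at 453 CPM in dendritic-like and 340 in monocyte-gene cells of BM only and at 124 and 370 in BM + Spl. Spi1 was at 683 and 924 CPM in BM only and at 879 and 617 in BM + Spl, which had 2 monocyte-gene cells. Prtn3, a protease of early granulocyte and monocyte precursors, had 100 UMIs in 3 of the monocyte-gene cells, and 4 of the 12 had at least 20 UMIs of 14 cell cycle genes. T cell UMIs were found in 2 of the 12, with 51 in a cell of BM only and 37 in a cell of BM + Spl.

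Of the remaining 7 cells, 6 had few UMIs, from 2076 to 3178, and the seventh had 30850. The 6 small cells held 14 to 26 UMIs of Lyz2 and 11 to 17 of Ifitm3, no H2-Aa and no T cell UMI, and between 1 and 9 of Nr4a1, a nuclear receptor that Ly6C-low monocytes need. Over all 7 cells Gngt2 had 59 UMIs, Pglyrp1 37, Trf 32, Ace 13 and Treml4 10, genes chosen after their values were seen. F13a1, one of the genes that defined the monocyte-gene cells, was at 0 in all 7. The large cell held 99 UMIs of Prtn3, 98 of Mpo, the myeloperoxidase gene of granulocyte precursors, and 60 of the cell cycle genes. Of the 8 uncalled cells with T cell UMIs, 3 had a UMI of Ncr1, an NK cell receptor gene, with 2 UMIs in a cell of BM only and 8 and 13 in cells of BM + Spl.

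Marker lists of other cells differed widely in their UMIs. T cell genes had 815 UMIs in 26 of the 85 cells, plasmacytoid dendritic genes, led by Bst2, 629 in 75 cells, and CD4+CD8+ thymocyte genes, led by Cd8a, 90 in 26 cells. The 8 neutrophil genes had 36 and 1 UMIs in the myeloid-marker cells of BM only and BM + Spl, led by S100a8, with 6 and 7 of the 8 at 0. The mast cell genes had 1 and 2 UMIs and the stromal genes 21 and 18, led by Pecam1, with 7 of 9 at 0 in each library. Of the 8 B cell genes, 6 were at 0 in each library, and Ighm, which carried most of the UMIs, had 50 and 14 in the dendritic-like cells (log2 ratio -1.60, -2.57 to -0.72). The erythroid genes that were in the tables had no UMI. Klrd1, which is listed with NK cells, had at least 1 UMI in 18 of 28 and 21 of 22 dendritic-like cells, with medians of 1 and 3.

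Class II transcripts divided the dendritic-like cells. The UMIs of H2-Aa, H2-Ab1 and H2-Eb1 together ran from 0 to 29 in 18 cells and from 70 to 413 in the other 32, and this gap, seen in the data, was used to set a limit of 30. Below it were 12 of 28 cells in BM only, 42.9% (24.5 to 62.8), and 6 of 22 in BM + Spl, 27.3% (10.7 to 50.2), so the intervals overlapped. In 8 of the 18 cells the 3 genes had no UMI, 6 in BM only and 2 in BM + Spl. The median depth was 9718 and 9737 UMIs below the limit and 10935 and 12008.5 above it.

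Dendritic genes were also compared between class II-low and class II-high cells. Clec10a was found in 17 of 18 class II-low and 28 of 32 class II-high cells (log2 ratio 0.07, -0.21 to 0.34), Cd209a in 17 and 29 (-0.48, -0.66 to -0.30), Flt3 in 14 and 25 (0.51, -0.19 to 1.19) and Zbtb46 in 14 and 15 (0.93, -0.01 to 1.86). Other genes of the class II path were not alike. Cd74, the invariant chain, was lower in class II-low cells by a log2 ratio of -2.34 (-2.44 to -2.24) and Ciita, with 5 UMIs against 58, by -2.40 (-4.08 to -1.09). H2-DMb1 was lower by -0.54 (-0.77 to -0.31), while H2-DMa, its partner (0.07, -0.20 to 0.34), and Ctss, the protease that trims the invariant chain (0.07, -0.24 to 0.37), were not distinguishable. Genes compared between these groups were chosen after values were seen.

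Transcription factors and surface genes differed in both directions. Irf8, a factor of cDC1, plasmacytoid cells and monocytes, was higher in class II-low cells by 2.58 (2.09 to 3.1), with UMIs in 12 of 18 cells against 7 of 32, but 121 of the 128 UMIs were from BM only. In BM only it was at 1046 CPM in class II-low and 106 in class II-high cells, and in BM + Spl at 107 and 130 CPM. Runx2, a factor known from plasmacytoid cells, had 33 UMIs against 5, a log2 ratio of 3.86 (2.49 to 5.57). Klf4, a factor of monocytes and of a part of cDC2, was higher by 1.42 (0.96 to 1.88), and Bst2, an interferon-induced surface antigen of plasmacytoid cells, by 1.40 (1.10 to 1.71). Ly6c2 was higher by 1.17 (0.81 to 1.53), with 891 and 202 CPM in BM only and 489 and 459 CPM in BM + Spl. Spi1 was lower (-0.43, -0.75 to -0.12), with 683 CPM in both classes of BM only and 519 and 997 CPM in BM + Spl. Irf4, at 0.60 (-0.09 to 1.27), was within its interval. Mgl2 (-1.60, -2.20 to -1.05) and Ifitm3, an antiviral membrane gene (-0.78, -1.0 to -0.56), were lower. Mgl2 was at 173 CPM in class II-low and 764 in class II-high cells of BM only and at 168 and 279 CPM in BM + Spl. Of the 151 Mgl2 UMIs of the BM only class II-high cells, 88 lay in 1 cell.

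**Figure D3:**
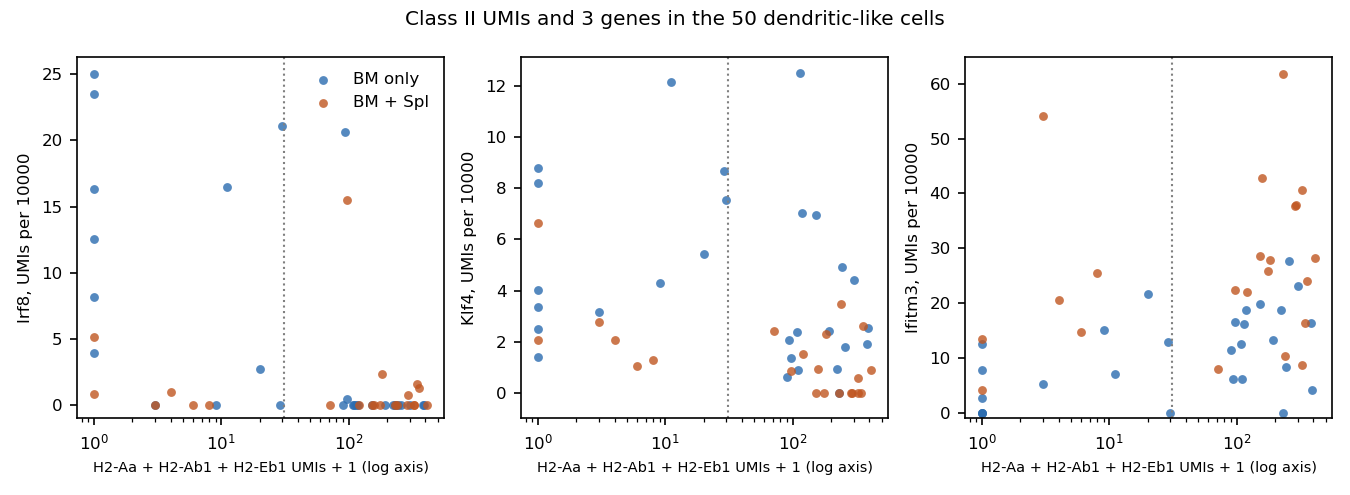
UMIs per 10000 of Irf8, Klf4 and Ifitm3 (vertical axes) against the UMIs of H2-Aa, H2-Ab1 and H2-Eb1 plus 1 (horizontal log axis) in the 50 dendritic-like cells, in blue for BM only and orange for BM + Spl, with the limit of 30 UMIs as a dotted line. High Irf8 lies mostly left of the line in BM only cells (9 of 12 with a UMI), and Ifitm3 is higher in BM + Spl cells on both sides.

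Siglech was 0 by the rule, so cells were also read by how many Siglech UMIs they held, among all cells with at least 4 rule genes and no Cd79a. In BM only 48 cells had 0, 23 had 1 to 3, 77 had 4 to 11 and 65 had 12 or more, and in BM + Spl 37, 24, 126 and 236. The cells with 1 to 3 UMIs stood between their neighbours for several genes in both libraries. Irf8 was at 382 CPM at 0, 1603 at 1 to 3, 2292 at 4 to 11 and 2501 at 12 or more in BM only, and at 155, 1296, 1989 and 2171 CPM in BM + Spl. Spi1 ran the other way, with 734, 587, 133 and 84.5 CPM in BM only and 752, 354, 64.2 and 62.8 CPM in BM + Spl, and so did Ifitm3, with 1185, 567, 60.1 and 78.8 CPM and 2002, 693, 117 and 33.5 CPM. Cd209a, a lectin of cDC2, was at 1453, 1355, 759 and 476 CPM and at 1734, 1953, 234 and 320 CPM, and was detected in 55.1% of the BM + Spl cells with the most Siglech.

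**Figure D4:**
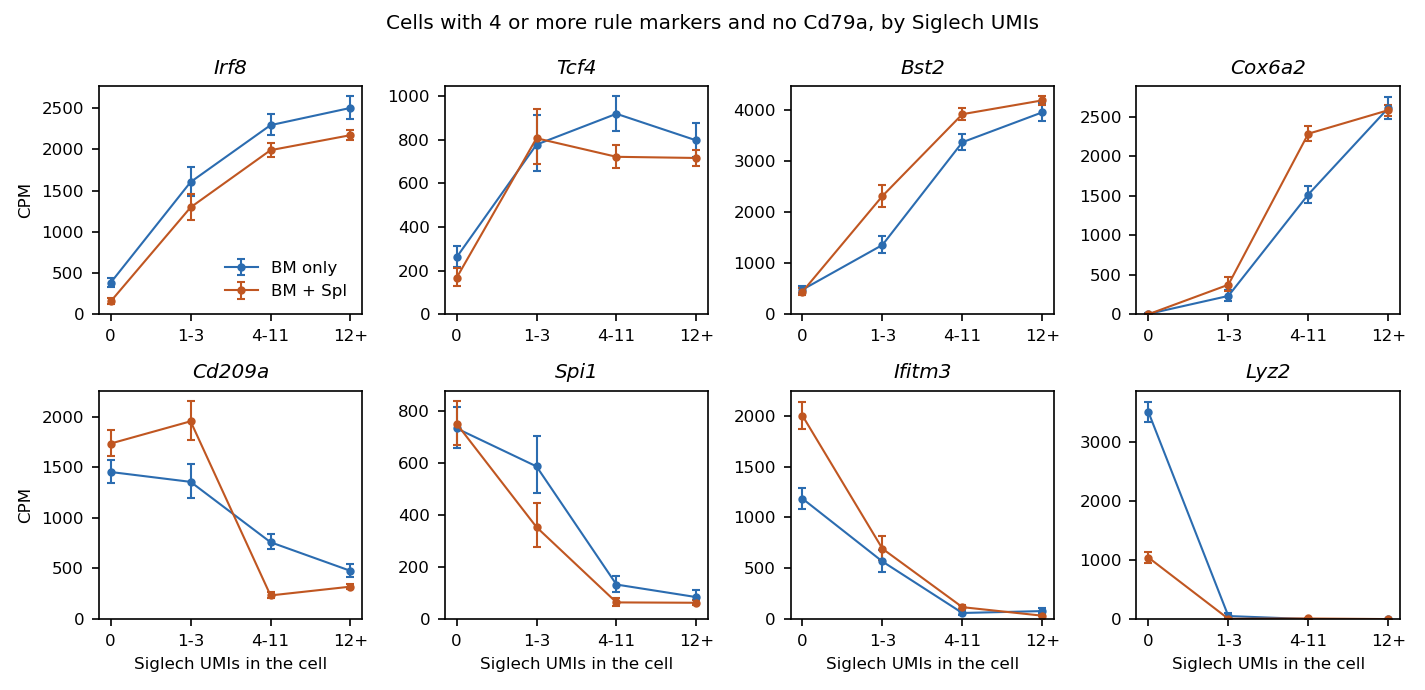
CPM of 8 genes (vertical axes, summed UMIs, bars for the 95% Poisson interval) by the Siglech UMIs of the cell (horizontal axis), in cells with at least 4 rule genes and no Cd79a, in blue for BM only and orange for BM + Spl. Irf8, Bst2 and Cox6a2 are higher with more Siglech, Spi1, Ifitm3 and Lyz2 are lower, and Cd209a is still detected at 12 or more Siglech UMIs.

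The dendritic-like cells were set beside the 504 cells with at least 4 Siglech UMIs, 142 of BM only and 362 of BM + Spl. With 28 and 22 dendritic-like cells, the summed ratios mix the libraries in different shares, and ratios by library are not given. Since Siglech divided the groups, since Csf1r is a rule gene, and since Batf3, Zbtb46 and Cd209a are among the genes that made a cell dendritic-like, the ratios are a description. The genes Batf3 (8.94), Csf1r (7.40), Olfm1 (6.40), Ier3 (5.82), Ifitm3 (4.80) and Cd40, the costimulatory receptor (4.03), were higher in dendritic-like cells on the log2 scale, as were Zbtb46 (3.17, 2.49 to 3.86), Cd209a (2.62, 2.51 to 2.72) and H2-Aa (1.35). Irf8 (-2.85, -3.08 to -2.64) and Bst2 (-2.65, -2.80 to -2.50) were lower, and Klk1 was at 0 UMIs and Cox6a2 at 1 against 8430 and 10111. Klrd1 (-0.22, -0.47 to 0.03) and Kmo, an enzyme of tryptophan breakdown (0.20, -0.06 to 0.46), differed by less than counting error, and Cd209d by 0.41 (0.26 to 0.55).

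The libraries were compared by summing UMIs over cells. Over all myeloid-marker cells 2621 genes had at least 50 UMIs, of which 34 (1.30%) were at least 2-fold higher in BM + Spl and 40 (1.53%) at least 2-fold lower, with a median log2 ratio of 0.01. Several of these rested on 1 cell. Mpo (4.41) lay in 1 cell of each library, Ifitm1 (4.82) to 76.9% in 1 cell of BM + Spl, and Apol7c, with 122 UMIs against 0, in 1 cell of BM only. Lyz2 was at 3510 CPM in BM only and 1043 in BM + Spl (-1.75, -1.91 to -1.60), and Fn1, a matrix gene of monocytes (56 and 7 UMIs, -2.88, -4.26 to -1.74), and Ccl2, a monocyte chemokine (57 and 5 UMIs, -3.39, -5.07 to -2.08), were also lower, with 85.7% of the Fn1 and 80.0% of the Ccl2 UMIs of BM + Spl in 1 cell. BM only had 10 monocyte-gene cells and BM + Spl 2, and Fn1 is one of the genes that defined them. The part of this mix in the ratios was not tested. Dok2, an adaptor of signalling (10 and 48 UMIs), was higher in BM + Spl by 2.39 (1.38 to 3.53) and Prtn3 by 1.82 (1.34 to 2.33), the last in 2 and 3 cells.

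The remaining named genes of this comparison were higher in BM + Spl for Igfbp4 (2.73), Phgdh (2.04), Id3 (1.60), Nrgn (1.56), Ifi27 (1.31), Ctsg (1.28) and Ifi207 (1.25). In 1 cell lay 50.9% of the BM + Spl UMIs of Phgdh, 90.5% of the BM only UMIs of Nrgn and 88.2% and 60.5% of the UMIs of Ctsg in the libraries. They were lower for Gzmc (-2.30), a granzyme with 85.7% and 96.1% of its UMIs in 1 cell of each library and a ratio of 3.31 with 3 or more rule genes, and for Hspa1b (-2.15), Fosb (-1.83), Gadd45b (-1.79), Taok1 (-1.73), Elane (-1.72), Cenpa (-1.51, with 71.4% of its BM + Spl UMIs in 1 cell) and Gm26887 (-1.50). Elane, Ctsg, Prtn3 and Mpo encode granule proteins of early myeloid cells, and the 43 and 12 UMIs of Elane lay in 3 and 2 cells.

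The dendritic-like cells, 28 in BM only with 313321 UMIs and 22 in BM + Spl with 266118, allowed a comparison within 1 class. Among 1711 genes with at least 50 UMIs, 17 (0.994%) were at least 2-fold higher in BM + Spl and 31 (1.81%) at least 2-fold lower, and the median log2 ratio was 0.01. Genes of the dendritic identity and cDC2 lists, of which Flt3, Cd209a, Batf3 and Fscn1 had helped to make the call, varied in direction, and the rule gene Csf1r and Spi1 are given beside them. Flt3 was at 137 and 135 CPM (-0.02, -0.70 to 0.65), Clec10a at 846 and 924 (0.13, -0.13 to 0.38), Cd209a at 2011 and 2660 (0.40, 0.25 to 0.56), Csf1r at 137 and 184 (0.42, -0.20 to 1.05) and Spi1 at 683 and 879 (0.36, 0.09 to 0.64). Batf3 was at 137 and 90.2 (-0.61, -1.39 to 0.15) and Mgl2 at 546 and 252 (-1.12, -1.55 to -0.70), past 2-fold, but 1 BM only cell held 88 Mgl2 UMIs. Fscn1 had 41 and 2 UMIs, with 70.7% of the 41 in 1 cell.

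Ier3 (ENSMUSG00000003541, chromosome 17 from 35821684 to 35822923), an early response gene downstream of NF-kB, was higher in BM + Spl. It had 0 to 12 UMIs per cell with a median of 1 in BM only, where 21 of 28 cells had a UMI, and 0 to 64 with a median of 4.5 in BM + Spl, where 18 of 22 did. The levels were 274 CPM (220 to 339) and 1011 CPM (894 to 1139), a log2 ratio of 1.88 (1.53 to 2.25), and the cells of both libraries overlapped. Other genes of the NF-kB and early response list did not stand with it. Of its 14 genes 11 were measured, Ier3 was the 1 that passed 2-fold, beside 0.994% of all genes higher, and the list's median was 0.07, with Nfkbia at 0.24 (-0.03 to 0.51), Atf3 at 0.07 (-0.19 to 0.33), Jun at -0.09 (-0.28 to 0.11) and Fos at -0.48 (-0.63 to -0.33).

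Ifitm3 (ENSMUSG00000025492, chromosome 7 from 141009586 to 141010770), an interferon-induced gene that was singled out after its values were seen, had 0 to 36 UMIs with a median of 12 in the BM only cells and 5 to 88 with a median of 28.5 in the BM + Spl cells. It was found in 23 of 28 and 22 of 22 cells, at 1088 and 2480 CPM, a log2 ratio of 1.19 (1.0 to 1.38). A UMI of it was also found in 17.1% and 16.3% of the T cells. In class II-low cells the ratio was 1.38 (0.97 to 1.79) and in class II-high cells 1.04 (0.82 to 1.26). Ifi207, an interferon-induced gene of a family with close copies, was higher by 1.56 (0.74 to 2.43), with 18 and 45 UMIs, and Ifi47, a GTPase gene, by 1.21 (0.47 to 1.98), with 58.3% of its BM only UMIs in 1 cell. Without the cells that held at least 3 T cell UMIs the ratio of Ifi47 was 0.53, under 2-fold.

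Few genes of the interferon lists were measured, and the list medians were above the 0.01 of all genes. Of 16 type I interferon response genes 5 were measured and 1, Isg15, passed 2-fold (1.02, 0.51 to 1.55), beside 0.994% of all genes, and the list's median was 0.53, or -0.01 without the cells that held at least 3 T cell UMIs. However, 47 of the 88 Isg15 UMIs of BM + Spl lay in 1 cell. Isg15 is a ubiquitin-like protein made on interferon signals, and its promoter (RefSeq, GRCm38.p6, chr4:156200819-156201068, minus strand, 5′ to 3′) is shown because it holds overlapping matches to GAAANNGAAA, the core of the interferon response element, in capitals.
Isg15: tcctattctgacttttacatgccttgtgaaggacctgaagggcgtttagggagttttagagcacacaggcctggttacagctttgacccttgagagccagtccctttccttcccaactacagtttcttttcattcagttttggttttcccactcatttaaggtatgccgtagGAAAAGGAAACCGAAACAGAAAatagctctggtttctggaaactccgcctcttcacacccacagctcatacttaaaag
On both strands this core was in 6 of the 13 promoters found for 12 of the 16 list genes, against 3.44% of all promoters, and in 2 (Ifitm3 and Ifi207) of 6 named library genes searched, the others being Ifi47, Ier3, Irf8 and Mgl2. Irf7, the master factor of the response, was at 744 and 1075 CPM (0.53, 0.28 to 0.79), and Bst2 at 638 and 631 CPM (-0.02, -0.32 to 0.29). Of 16 interferon gamma genes 3 were measured and none passed 2-fold, with Irgm1 at 0.80 (-0.01 to 1.63), Ciita at 0.65 (-0.11 to 1.43) and Irf1 at -0.80 (-1.58 to -0.05). The median of these 3 was 0.65.

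Summed over the dendritic-like cells, class II genes differed little between the libraries. Of 12 genes of the pathway 10 were measured and none passed 2-fold, with a median log2 ratio of 0.35 against 0.01 for all genes. H2-Aa had 0 to 162 UMIs per cell with a median of 51 in BM only and 0 to 173 with a median of 74.5 in BM + Spl, and its level was 4695 and 6099 CPM (0.38, 0.27 to 0.48). H2-Ab1 was higher by 0.75 (0.62 to 0.88), H2-Eb1 by 0.36 (0.23 to 0.50), Cd74 by 0.29 (0.24 to 0.34) and H2-DMb1 by 0.39 (0.19 to 0.58). Class II-low cells were 12 of 28 and 6 of 22, and the part of this mix in the summed levels was not tested. Within class II-high cells the ratio was 0.16 (0.06 to 0.27) for H2-Aa and 0.53 (0.40 to 0.66) for H2-Ab1. Within class II-low cells the ratios had the opposite sign, at -1.82 (-3.11 to -0.74) for H2-Aa, with 50 and 8 UMIs, -1.35 (-2.92 to -0.04) for H2-Ab1, -1.84 (-4.24 to -0.08) for H2-Eb1 and -0.75 (-0.97 to -0.53) for Cd74. The cells were grouped by the UMIs of H2-Aa, H2-Ab1 and H2-Eb1 themselves, which reached 29 in the BM only and 7 in the BM + Spl class II-low cells, with 6 of 12 and 2 of 6 cells at 0, so these ratios are a description.

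Irf8 and Klf4 had lower summed levels in the dendritic-like cells of BM + Spl, but the sign of Irf8 turned on thinning. Irf8 (ENSMUSG00000041515, chromosome 8 from 120736358 to 120756694) had 0 to 28 UMIs per cell in BM only and 0 to 18 in BM + Spl with a median of 0 in both, and was found in 11 of 28 and 8 of 22 cells. It was at 453 and 124 CPM, a log2 ratio of -1.87 (-2.46 to -1.31), with 54.5% of its BM + Spl UMIs in 1 cell. By class II level, class II-low cells had 121 and 7 UMIs in 12 and 6 cells (-3.29, -4.64 to -2.20) and class II-high cells 21 and 26 UMIs (0.29, -0.60 to 1.19), and the difference between these ratios was not tested. With each cell thinned to 2000 UMIs and called again the ratio over all dendritic-like cells was 0.16, of the opposite sign, so no direction is read for Irf8. The share of cells with an Irf8 UMI among the T cells was 9.64% and 12.2%. Klf4 was found in 27 of 28 and 15 of 22 cells, at 412 and 139 CPM (-1.57, -2.13 to -1.03), and was lower in class II-low (-1.30, -2.16 to -0.53) and class II-high cells (-1.48, -2.30 to -0.72). Irf8 and Klf4 were the 2 of 4 measured macrophage transcription factors, and Irf8 the 1 of 6 measured dendritic ones, that passed 2-fold, beside 1.81% of all genes lower, with list medians of -0.74 and -0.45. Without Irf8, whose sign turned on thinning, 1 of the 4 and 0 of the 6 remain. Irf4, which cDC2 need, was at 131 and 150 CPM (0.20, -0.47 to 0.86) and Tcf4 at 364 and 256 CPM (-0.51, -0.97 to -0.06).

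**Figure D5:**
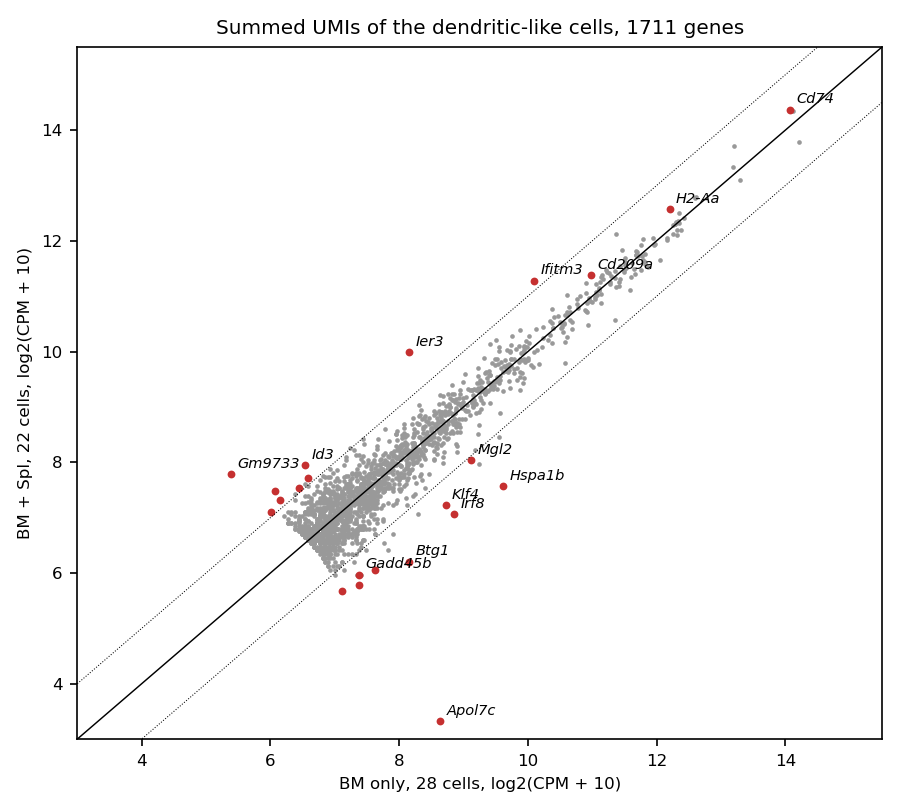
Level of 1711 genes in the dendritic-like cells, as log2 of CPM plus 10, in BM only (horizontal axis, 28 cells) and BM + Spl (vertical axis, 22 cells), with the line of equal level and dotted lines 2-fold from it. The named genes are in red, some without their names, with Ier3 and Gm9733 above and Hspa1b, Irf8, Klf4 and Btg1 below the dotted lines, and Cd74, H2-Aa and Cd209a near the line of equal level.

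The lowest ratios of BM + Spl over BM only included Hspa1b, Btg1, Fosb and Gadd45b, which the rule for named genes picked. Hspa1b, a heat shock gene with the near-identical copy Hspa1a, had 0 to 32 UMIs with a median of 7 in BM only and 0 to 12 with a median of 1 in BM + Spl, at 772 and 180 CPM (-2.10, -2.58 to -1.65). Hspa1a was at 597 and 240 CPM (-1.31, -1.74 to -0.89). Btg1, an inhibitor of growth, had 86 and 17 UMIs in 22 of 28 and 11 of 22 cells (-2.10, -2.95 to -1.34), Fosb, an early response gene, 59 and 15 (-1.74, -2.66 to -0.90) and Gadd45b, a stress gene, 49 and 14 (-1.57, -2.54 to -0.69). In class II-high cells Gadd45b had 40 and 3 UMIs (-3.76, -6.10 to -2.11) and in class II-low cells 9 and 11 (1.11, -0.30 to 2.56). Such genes are also known to respond to cell handling, whose part was not tested. The others by the rule were Gm15494 (-1.79) and Wac (-1.63) among the lower and Gm9733 (2.72, 1.74 to 3.86), Id3 (1.51), Stoml2 (1.31), Rasgrp4 (1.24) and Wfdc17 (1.21) among the higher genes. Id3, an inhibitor of transcription factors, had 52.4% of its BM + Spl UMIs in 1 cell, and its ratio was 3.88 in class II-low cells (6 and 50 UMIs) and -0.64 in class II-high cells (20 and 13 UMIs). Mgl2 was lower by a log2 ratio of -1.12 (-1.55 to -0.70), with 51.5% of its BM only UMIs in 1 cell.

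Genes by which dendritic cells act on T cells were mostly too few to compare. Cd40, the 1 measured gene of 11 costimulatory ligands and receptors, was at 204 and 203 CPM (-0.01, -0.56 to 0.54), while Cd80 had 4 and 3 UMIs, Cd86 10 and 4 and Icosl 12 and 14. Cd1d1, which presents lipids to iNKT cells, had 12 UMIs in 1 cell of BM only and none in BM + Spl, where the depth allows up to 11.3 CPM. Of the 12 genes of lipid presentation 5 were measured and none passed 2-fold (median -0.14), with Psap, the saposin precursor, at 1953 and 1413 CPM (-0.47, -0.66 to -0.28). Among 16 cytokines Tgfb1 was measured, at 402 and 395 CPM (-0.03, -0.42 to 0.36), and among 19 chemokines Ccl4, at 163 and 86.4 CPM (-0.91, -1.69 to -0.18).

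The remaining lists held few genes past 2-fold in the dendritic-like cells. None of 9 measured lysosomal hydrolases (median -0.15), 3 lipid handling genes (-0.11), 4 iron and haem genes (-0.26), 3 Fc receptor genes (-0.01), 2 Toll-like receptor pathway genes (0.60), 2 complement genes (0.28) and 1 gene of the uptake of dead cells (-0.06) did so. Of the cell cycle genes 1 was measured, Mcm6, at 1.03 (0.26 to 1.84), and at least 20 cell cycle UMIs were found in 1 and 3 cells. The T cell genes had 243 and 83 UMIs in the dendritic-like cells, led by Cd3d, with 4 and 2 cells at 20 or more and 18 and 17 cells at 0. Without the cells that held at least 3 T cell UMIs, which also leaves fewer cells to sum, the ratio was 2.03 for Ier3 and -2.07 for Hspa1b.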

How the data were processed

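The authors deposited UMI counts, whole numbers per gene and cell with no normalization, in 1 matrix for each of 3 libraries. Per the file headers these were made with Cell Ranger 3.0.2 for C57BL/6 and 7.0.0 for the BMT libraries, versions that differ from the one the study's methods give, and the submitters' processing notes name mm10 and Seurat 4.0.2. The sources do not settle whether the 3′ or the 5′ kit was used. Each library was made from pooled mice, so there is 1 sample per group. Barcodes numbered 4613 (C57BL/6), 5986 (BM only) and 5573 (BM + Spl). Of these 4434, 5970 and 5557 had more than 200 but fewer than 6000 genes and a mitochondrial share below 10%, where the study states 4491, 4201 and 2456 cells, and the difference was not resolved. No doublet caller was run, and T cell UMIs are given for several of the classes instead.

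Calls need at least 2 identity genes. Levels are summed UMIs per 1000000, ratios are on the log2 scale with exact conditional intervals, shares have Clopper-Pearson intervals and levels Poisson intervals. Genes with 50 or more UMIs over both libraries were compared, and at least 2-fold counted as called. A level of 0 is read as up to 3 UMIs. Named were the 12 genes with the highest and the 12 with the lowest ratio over all members and 8 each over the dendritic-like cells, which took the place of the macrophage-like cells because these were fewer than 20. Of the genes so chosen and of the lists, some are not reported here. Others named outside the lists were chosen after their values were seen, as were the groups of uncalled cells, the class II limit and the Siglech ranges. The members and lists were chosen with earlier results of these data known. Of the 36 lists, the genes of the I-E alpha chain and 1 each of the erythroid and type I interferon lists were not analysed here. Cell types follow rebuilt calls, which may differ from those of the study.

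Python 3.11.15, numpy 2.4.6, scipy 1.17.1, pandas 2.3.3, scanpy 1.11.5 and matplotlib 3.10.9 were used. The ratio code was tested on simulated data. Alternatives changed the number of rule genes, the filter, T cell UMIs, depth, calls, scaling and thresholds.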

Additional observations from a re-analysis of the deposited data

How the results depend on the processing

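Of 674 values under alternative settings 598 were unchanged, 74 moved and 2 reversed. Unchanged means within the counting error, within 1.5 times for counts or, for list medians, within a fixed log2 limit. With 3 or more rule genes, members were 3.07% of BM only and 2.11% of BM + Spl cells, 17.7% of them dendritic-like and 76.3% with at least 3 T cell UMIs, with 94 genes higher and 137 lower, and Gzmc reversed to 3.31. With the additional condition of fewer than 3 T cell UMIs, chosen after seeing the data, 21 genes were higher. Leaving out members with at least 3 T cell UMIs gave 18 higher genes. With cells thinned to 2000 UMIs the dendritic-like share was 31.8%, the macrophage-like 1.18% and that with T cell UMIs 9.41%, 8 genes were higher and 7 lower in members and 2 and 4 in dendritic-like cells, and Irf8 reversed to 0.16. Requiring 3 identity genes gave 47.1% dendritic-like. Calls made by Leiden cluster were 100% dendritic-like and 0% macrophage-like, with 34 higher genes, although of the 4 clusters 1 of 18 cells had 3.78 monocyte and 0.444 dendritic identity genes per cell and 1 of 19 cells had 7.42 T cell and 1.32 dendritic identity genes. Means of each cell's CPM gave 52 higher and 69 lower genes in members. A fold of 1.5 gave 166 and 213 genes in members and 109 and 131 in dendritic-like cells, and a minimum of 20 UMIs 180 and 275, and 119 and 195. Over the alternatives other than Leiden clusters, Ier3 ran from 1.70 to 2.52, Hspa1b from -2.13 to -1.54 and Btg1 from -2.24 to -1.81. With Leiden clusters Ier3 was 1.04. The lowest values of Ifi47, Rasgrp4 and Wfdc17, at 0.53, 0.95 and 0.86, were under 2-fold. No paired analysis was possible because each group is 1 library, and for the same reason no replicate could be left out. Depth limits the class of 4 macrophage-like cells most, where 1 UMI is 228 CPM in BM only and 69.8 CPM in BM + Spl.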

Other observations

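The 4 uncalled cells in which Cd209a was the only dendritic gene held 18, 15 and 10 of its UMIs in BM only and 30 in BM + Spl, and they varied in class II, with 111, 133 and 1 UMIs of Cd74, the invariant chain, in BM only and 404 in BM + Spl. The 8 uncalled cells with T cell transcripts held 48, 8, 8 and 20 T cell UMIs in BM only and 11, 13, 118 and 118 in BM + Spl. H2-Aa was at 0 in 7 of these 8 and had 2 UMIs in the other, and Ifitm3, an interferon-induced membrane gene, was found in 6 of them. At least 20 UMIs of 14 cell cycle genes were found in 6 of 48 and 5 of 37 myeloid-marker cells.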
